A study of Mus musculus with 7 samples.

Results

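The respiratory chain and tricarboxylic acid (TCA) genes described here are 35 nuclear genes of mitochondrial energy metabolism. They comprise 12 genes listed under complex I, 4 of complex II, 5 of complex III, 6 of complex IV, 4 TCA enzymes and 4 regulators. The genes were given by name. A probe was taken as theirs when the transcript accession deposited with it belongs to the gene in RefSeq. Of the 35 genes, 34 were matched, by 47 of the 56605 probes, and all 34 entered the test among 22060 genes. Cox5b, a complex IV subunit, matched no probe and was not analysed here.

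The cells were MIN6, a mouse insulinoma line of beta-cell type that produces insulin and releases it. The MPE group held 4 arrays of cells treated for 3 days with Maidong polysaccharide extract, and the vehicle group held 3 arrays of cells given phosphate-buffered saline for the same 3 days. The labels do not give the MPE concentration of the arrays or say whether replicates were separate cultures, so the p-values rest on a spread between arrays that may be only technical. MIN6 is 1 cell line in culture, and the arrays report RNA levels, not protein, respiration or mitochondrial number. In RNA of whole cultures, fewer cells of a type and less RNA per cell cannot be told apart.

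Electrons from NADH enter the chain at complex I and those from succinate at complex II. Complex III passes them to cytochrome c and complex IV to oxygen, while complexes I, III and IV pump the protons that drive ATP synthase. The TCA cycle supplies the NADH and succinate. In beta cells this route matters for secretion: ATP made from glucose closes potassium channels, and the depolarization that follows opens calcium channels and releases insulin granules. Most subunits are encoded in the nucleus, and the factors NRF1, TFAM and the coactivator PGC-1alpha (gene Ppargc1a) are known regulators of their supply and of mitochondrial DNA.

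NRF1 binds a palindromic GC-rich motif near the starts of many respiratory genes. Of the 35 genes, 26 had a promoter sequence in the RefSeq table (GRCm38.p6, 250 bases before to 50 after the start). The letters GCGCANGCG, most of that palindrome, were searched on both strands and were present in 6 of these 26 genes (23.1%) and in 1901 of all 27025 genes with a promoter there (7.03%). These 9 letters were chosen after the full palindrome of 10 letters had been searched, for a reason of presentation and not of biology, and the longer form was present in 4 of the 26 genes (15.4%) and in 5.19% of all genes. The match nearest to the start in each of the 6 genes is shown because NRF1 is itself among the measured regulators. Capitals mark the motif, with 10 flanking bases on each side, written 5′ to 3′ on the gene's strand.
Cox6a1 promoter: cggataaagtGCGCAGGCGctggagttcc
Sdhd promoter: tcgctggggtGCGCACGCGcggtggcagc
Ogdh promoter: taggtgttgtGCGCATGCGtaactcaact
Sdha promoter: gcgactcggtGCGCAAGCGcagtctgtcg
Ndufb10 promoter: tcacctttctGCGCAGGCGtagaggtccc
Uqcrc1 promoter: ttccttacagCGCTTGCGCctcagactcc

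The windows lie at chr5:115349057-115349085 (Cox6a1, minus strand), chr9:50603910-50603938 (Sdhd, minus strand), chr11:6292533-6292561 (Ogdh, plus strand), chr13:74350232-74350260 (Sdha, minus strand), chr17:24724407-24724435 (Ndufb10, minus strand) and chr9:108936644-108936672 (Uqcrc1, plus strand). Counted from the first transcribed base as 0, the motif begins at -117 in Cox6a1, -79 in Sdhd, -15 in Ogdh, -10 in Sdha, -2 in Ndufb10 and 6 in Uqcrc1, where it reads on the other strand. The ETS-family letters CCGGAAG, the core bound by the activator GABP, were found on either strand in 6 of the 26 genes (23.1%), against 9.93% of all genes. The YY1 letters AAGATGGCG were found in 1 gene, Ndufa9, and the estrogen-related-receptor letters TCAAGGTCA in 1, Sdhd, against 1.64% and 0.47% of all genes. The YY1 letters were likewise shortened from 11 to 9 after the first search, in which 1 of the 26 genes and 0.75% of all genes held them. No motif contains another, and a match is a description of sequence, not a binding site.

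Levels are log2 of the processed intensity minus the array's 75th percentile over all gene probes, so a level of 0 is that percentile, and levels of different probes are not comparable with each other. All 34 genes were well above background on all 7 arrays. Over the 34 genes, 30 lay in the brightest 20% of the genes tested. Ppargc1a, Ucp2, Nrf1 and Tfam were the other 4. Of the beta-cell markers, 9 of 10 were tested, and the insulin gene Ins2 was at 10.23 ± 0.09 with MPE (SD, n = 4) and 10.41 ± 0.20 with vehicle (SD, n = 3), while the glucose transporter Slc2a2 was not tested. All 9 tested beta-cell markers lay below 0 in the difference, with a median of -0.067 and none called, where 57.7% of all genes tested lay below 0. With quantile normalization 8 of the 9 did so, with a median of -0.025. Of 9 stromal, endothelial and immune markers, 3 were tested, and the collagens Col1a1 and Col3a1, the endothelial genes Pecam1 and Cdh5 and the leukocyte gene Ptprc were not. Itgam, Tagln and the exocrine lipase Cel had log2 differences of -0.35 (SE 0.09), -0.34 (SE 0.10) and 1.63 (SE 0.57), each with a limma p under 0.05 only without adjustment. The other tested genes of these lists went the other way, Cd68 at 0.10 and the exocrine gene Ctrb1 at -0.12. Cel was dim and its groups overlapped, with levels of -3.67 to -1.07 with MPE and -4.08 to -3.63 with vehicle. The part of these genes in the results below was not tested. The MPE arrays lay in the second row of the slide and the vehicle arrays in the first, so an effect of slide row cannot be told apart from one of MPE. Between 27944 and 28514 probes were well above background on MPE arrays, and between 29501 and 30122 on vehicle arrays.

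For none of the 34 genes did the level with MPE differ from that with vehicle past limma's threshold. The comparison asks whether 3 days of MPE go with another level of respiratory chain and TCA transcripts. By limma's moderated test over all 22060 genes, 0 of the 34 had an adjusted p under 0.05, each with an adjusted p of 1, and 0 had an unadjusted p under 0.05. Across all genes tested, 0.00453% were called higher and 0% lower, and at an unadjusted p under 0.05 the shares were 0.757% higher and 3.35% lower. In 0 of the 34 did all MPE arrays lie to one side of all vehicle arrays, where 1.17% of all genes were higher without overlap and 3.36% lower. The MPE levels were between 0.942 and 1.06 times the vehicle levels.

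The 95% intervals of all 34 lay within 1.5-fold in both directions, as did those of 80.7% of all genes tested. Narrow intervals went with bright probes: in the brightest 20% of genes, which hold 30 of the 34, they lay within 1.5-fold for 4355 of 4412 genes, and in the dimmest 20% for 1549 of 4412. The lowest bound was 0.748 times vehicle, for Sdhc, and the highest 1.22 times, for Ucp2. For 30 of the 34 genes the difference was smaller than the gene's own SD between replicates, whose median over the genes was 0.067 on the log2 scale.

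**Figure D1:**
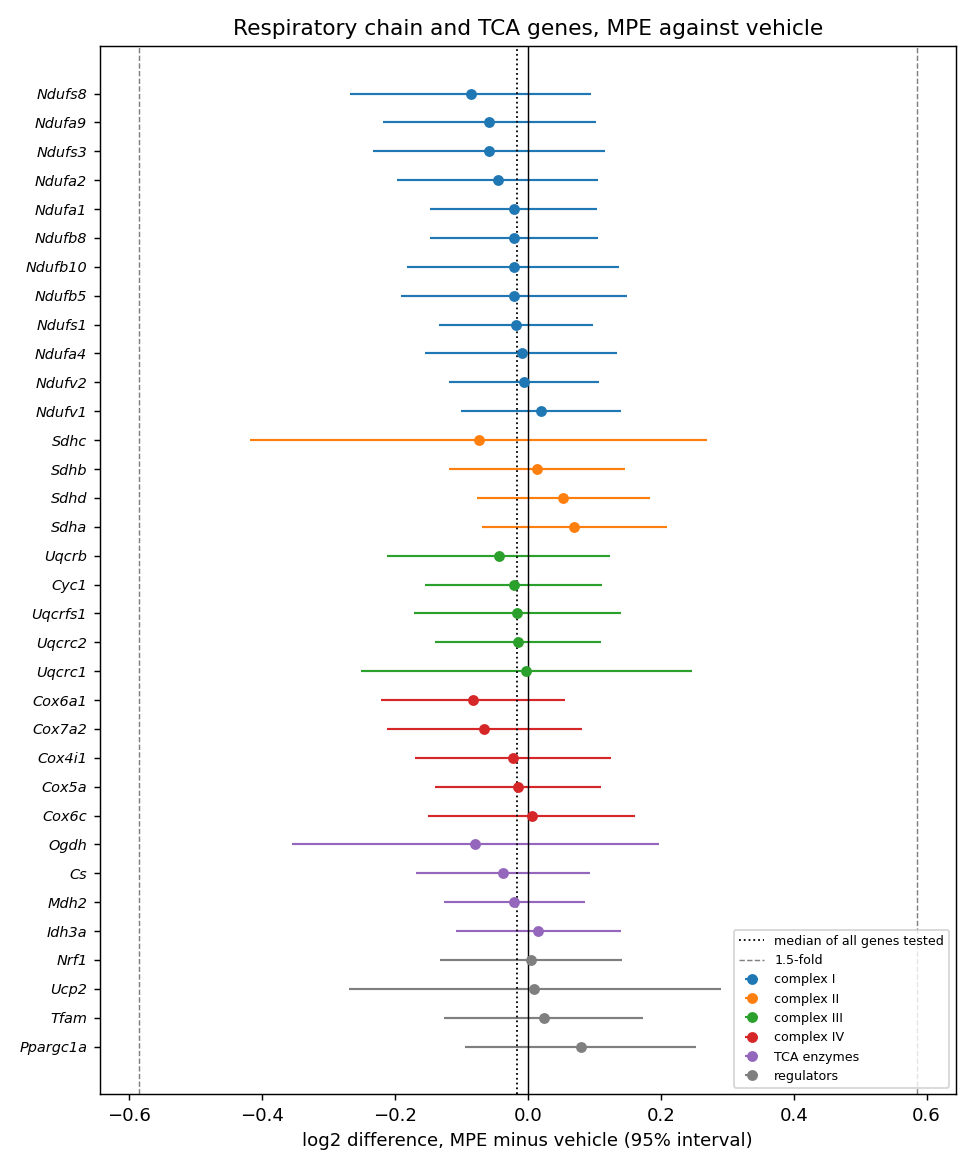
Difference between MPE and vehicle for each of the 34 respiratory chain and TCA genes, as log2 difference (x axis) with its 95% interval from limma, coloured by complex or role. Every interval crosses 0 and lies inside the dashed lines at 1.5-fold, and the dotted line marks the median of all genes tested, -0.016.

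Of the 12 genes listed under complex I, 11 had a difference below 0 and 1 above, with a median of -0.021. With quantile normalization that direction turned, to 4 below and 8 above with a median of 0.008. Ndufs8, an iron-sulfur subunit on the path of electrons to ubiquinone, stood lowest. Its log2 levels were 5.71, 5.74, 5.50 and 5.69 on the MPE arrays and 5.81, 5.78 and 5.66 on the vehicle arrays, a fold of 0.942 (95% interval 0.831 to 1.07). MPE replicate 3 was the lowest array, and the other 3 MPE arrays overlapped the vehicle arrays.

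Ndufv1, which carries the site where NADH is oxidized, was the only one of the 12 above 0. Its log2 levels were 5.89, 5.96, 5.86 and 5.91 with MPE and 5.89, 5.92 and 5.84 with vehicle, a fold of 1.01, with a 95% interval of the log2 difference of -0.10 to 0.14. The groups overlapped, with MPE replicate 2 the highest array and vehicle replicate 3 the lowest. Ndufs3, another core subunit, and Ndufa9, an accessory subunit, each had a fold of 0.960 or 0.961. Ndufa2 was at 0.969 times vehicle. Ndufa1, Ndufb5, Ndufb8, Ndufb10 and the core subunit Ndufs1 lay between 0.985 and 0.988 times vehicle, and Ndufv2, the partner of Ndufv1 in the NADH-oxidizing module, was at 0.996 times. Ndufa4, named for complex I but later assigned to complex IV, was at 0.994 times vehicle.

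In complex II, succinate dehydrogenase, the signs ran the other way, with 3 of 4 genes above 0 and a median of 0.034. With each array scaled to its median instead, 3 of the 4 were below 0, with a median of -0.036, but that scaling put 82.9% of all genes below 0. With quantile normalization 3 of the 4 stayed above 0, with a median of 0.051. The genes of complexes I, III and IV then lay mostly above 0 too. Sdha, the flavoprotein that oxidizes succinate, had log2 levels of 3.80, 3.80, 3.90 and 3.71 with MPE and 3.72, 3.74 and 3.73 with vehicle. Its fold was 1.05 (0.953 to 1.16), and MPE replicate 4 lay below the vehicle arrays while the other 3 MPE arrays lay above them. It was the single gene of the 34 that stayed above 0 under all 20 alternatives, with a lowest log2 difference of 0.001, under median scaling. The iron-sulfur subunit Sdhb was at 1.01 times vehicle and the membrane anchor Sdhd at 1.04 times.

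Sdhc, the other membrane anchor, was the most variable gene of the set. Its log2 levels were 4.12, 4.13, 3.78 and 3.71 with MPE and 4.20, 4.04 and 3.80 with vehicle. Both groups thus held high arrays (replicates 1 and 2) and low ones (replicate 3, and replicate 4 of MPE), and the fold of 0.950 had the widest interval, 0.748 to 1.21.

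All 5 complex III genes lay below 0, with a median of -0.016, while quantile normalization gave 2 below and 3 above. Uqcrb, a small subunit at the ubiquinone side, had log2 levels of 5.60, 5.52, 5.52 and 5.37 with MPE and 5.57, 5.59 and 5.47 with vehicle. Its fold was 0.971 (0.864 to 1.09), and the low array was MPE replicate 4. Uqcrc1, a core protein, had levels of 5.65, 5.68, 5.43 and 5.52 with MPE and 5.64, 5.72 and 5.37 with vehicle, a fold of 0.999 (0.841 to 1.19). Its lowest array belonged to vehicle and its second lowest to MPE, both replicate 3. The other core protein Uqcrc2, the Rieske iron-sulfur protein Uqcrfs1 and cytochrome c1 (Cyc1) lay between 0.985 and 0.990 times vehicle.

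In complex IV, cytochrome c oxidase, 4 of the 5 tested genes were below 0 with a median of -0.022, and with quantile normalization 1 was below and 4 above. Cox6a1, the ubiquitous isoform of subunit VIa, had log2 levels of 9.25, 9.23, 9.11 and 9.18 with MPE and 9.32, 9.29 and 9.22 with vehicle. Its fold was 0.945 (0.858 to 1.04), and its unadjusted limma p of 0.202 was the smallest of the 34. Its MPE arrays were mostly lower, with 2 of the 4 above the lowest vehicle array. Cox6c had levels of 6.62, 6.60, 6.70 and 6.62 with MPE and 6.51, 6.66 and 6.71 with vehicle, a fold of 1.00 (0.902 to 1.12). Cox7a2 was at 0.956 times vehicle, and Cox4i1 and Cox5a were at 0.985 and 0.990 times.

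The 4 TCA enzymes gave 3 differences below 0 and 1 above, with a median of -0.029, and quantile normalization gave 2 and 2. Ogdh, the first component of the 2-oxoglutarate dehydrogenase complex, had log2 levels of 5.51, 5.47, 5.18 and 5.36 with MPE and 5.55, 5.58 and 5.24 with vehicle. As with Sdhc and Uqcrc1, replicate 3 was low in both groups, and the fold of 0.947 had an interval of 0.782 to 1.15. Idh3a, a subunit of the NAD-dependent isocitrate dehydrogenase, had levels of 4.71, 4.80, 4.80 and 4.72 with MPE and 4.72, 4.79 and 4.72 with vehicle, a fold of 1.01, with an interval of the log2 difference of -0.11 to 0.14. Citrate synthase (Cs), which joins acetyl-CoA to oxaloacetate, was at 0.975 times vehicle. Mitochondrial malate dehydrogenase (Mdh2), which regenerates the oxaloacetate, was at 0.986 times (0.916 to 1.06), with an SD of 0.024 among MPE arrays and 0.006 among vehicle arrays.

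The 4 regulators all lay above 0, with a median of 0.017, while median scaling put 3 of them below. Quantile normalization left 3 of them above 0, with a median of 0.016. Ppargc1a, the coactivator of mitochondrial biogenesis, had log2 levels of -0.60, -0.62, -0.47 and -0.47 with MPE and -0.69, -0.66 and -0.50 with vehicle. Its fold was 1.06 (0.937 to 1.19), the highest of the 34, with overlapping groups. Tfam, which packages and transcribes mitochondrial DNA, had levels of 2.71, 2.64, 2.77 and 2.58 with MPE and 2.62, 2.63 and 2.70 with vehicle, a fold of 1.02 (0.916 to 1.13).

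Nrf1, the transcription factor whose motif is printed above, had log2 levels of 1.16, 1.15, 1.04 and 1.13 with MPE and 1.07, 1.19 and 1.09 with vehicle. The fold was 1.00, with an interval of the log2 difference of -0.13 to 0.14. Ucp2, an inner-membrane carrier known in beta cells as a brake on glucose-stimulated secretion, had levels of -1.27, -1.13, -1.30 and -1.13 with MPE and -1.20, -0.99 and -1.47 with vehicle. Its fold was 1.01 (0.830 to 1.22), and both the highest and the lowest array were vehicle arrays.

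**Figure D2:**
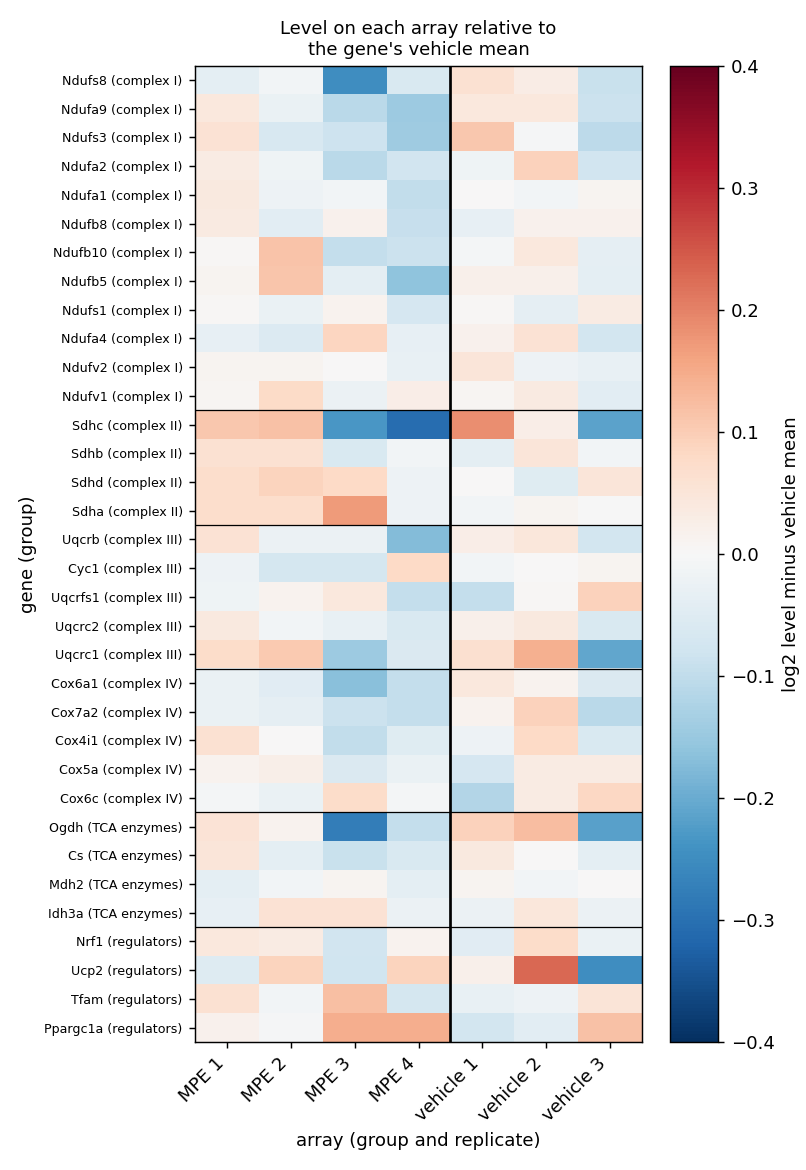
Log2 level of each of the 34 genes on each array minus the gene's vehicle mean (colour), with the 4 MPE arrays left of the line and the 3 vehicle arrays right of it. Sdhc, Uqcrc1 and Ogdh are blue on replicate 3 of both groups, and for each of the 34 genes the arrays of the 2 groups overlap.

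Several probes measured 11 of the genes, and for some they differed in sign. The dimmer probe of Ucp2 gave a log2 difference of 0.34 where the brighter gave 0.01, and its limma p was under 0.05 without adjustment and 1.00 with it. The 2 probes gave -0.04 and 0.04 for Cs, 0.08 and -0.06 for Ppargc1a, and -0.02 and 0.02 for Ndufb5. The 4 Nrf1 probes were each deposited with a different transcript. Of these probes, 3 were well above background on all arrays, with differences of 0.01, 0.03 and -0.08, and the fourth was near background on all 7. The probe pairs of Sdha, Sdhb, Tfam, Ndufv1, Uqcrb and Ogdh agreed in sign.

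More of the genes lay below 0 than above, 24 against 10. The median difference was -0.019 on the log2 scale, or 0.987 times vehicle. Over all genes tested, 57.7% lay below 0 and the median was -0.016, and in the brightest 20% of genes, which hold 30 of the 34, 66% lay below 0 and the median was -0.020. Against the median of all genes, 18 of the 34 were below it. By place on the array, 13 of the 19 genes in the low-numbered rows and 11 of the 15 in the high-numbered rows were below 0.

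**Figure D3:**
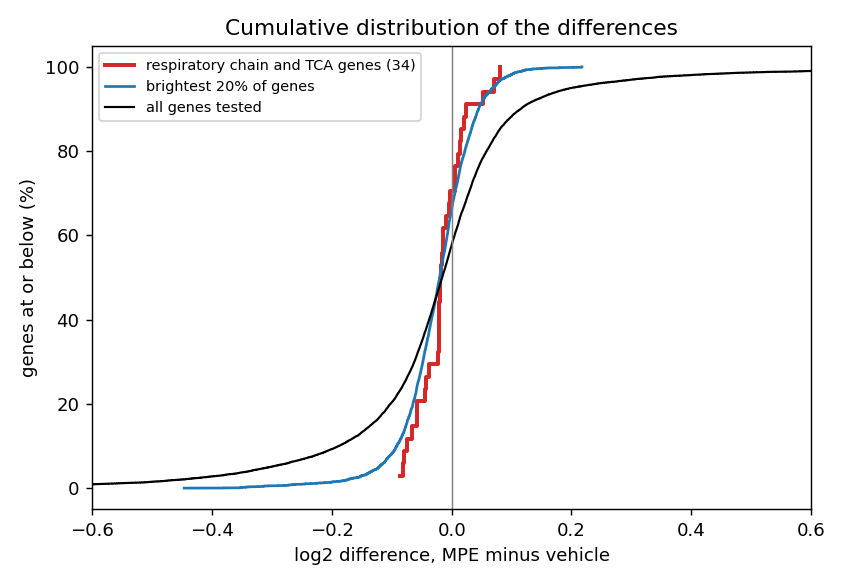
Share of genes (y axis, percent) at or below each log2 difference between MPE and vehicle (x axis) for the 34 respiratory chain and TCA genes, the brightest 20% of genes and all genes tested. The 34 genes follow the curve of bright genes, with medians of -0.019 and -0.020, and all lie between -0.086 and 0.080.

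The direction depended on how the arrays were scaled. With quantile normalization 11 of the 34 genes were below 0 and the median was 0.012, and the authors' value table gave 11 and 0.012. Normexp background correction with quantile normalization gave 12 and 0.007. With each array scaled to its median, 32 were below 0 and the median was -0.089, but that scaling shifted the median of all genes to -0.086. The brightest 20% of genes moved with the set, with medians of 0.003, 0.003, 0.003 and -0.090 under these 4 settings. Under all 6 ways of scaling, 0 of the 34 genes passed the adjusted threshold.

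**Figure D4:**
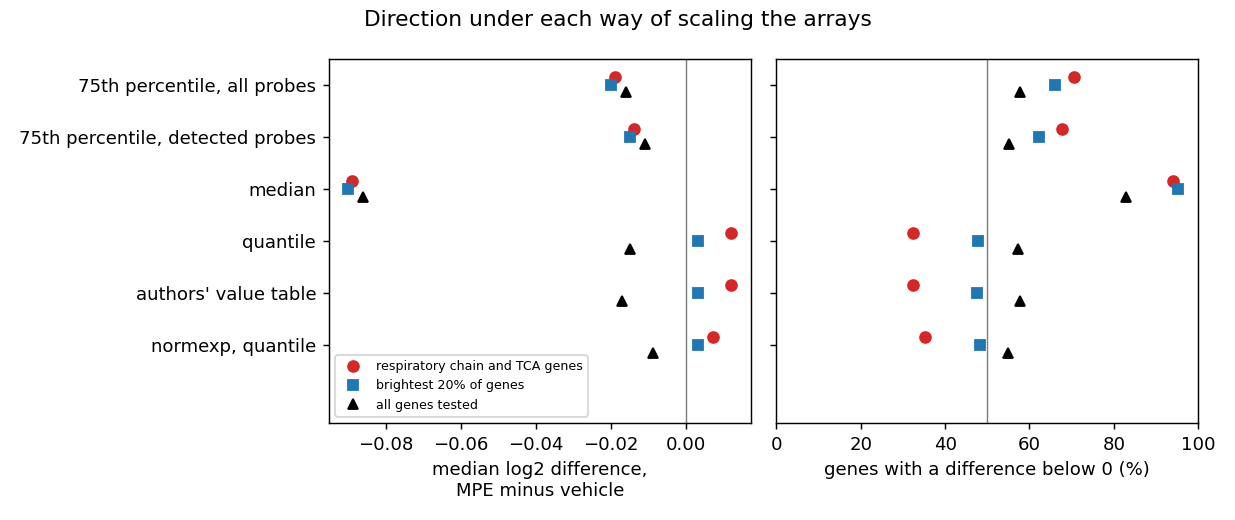
Median log2 difference between MPE and vehicle (left) and percent of genes with a difference below 0 (right) under 6 ways of scaling the arrays, for the 34 respiratory chain and TCA genes, the brightest 20% of genes and all genes tested. The 34 genes run from a median of -0.089 with median scaling to 0.012 with quantile normalization.

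Arrays of the same group differed in the median of the set by more than the groups did. Relative to each gene's vehicle mean, the median over the 34 genes was 0.023, -0.006, -0.051 and -0.056 on the MPE arrays and 0.003, 0.033 and -0.037 on the vehicle arrays. MPE replicates 3 and 4 and vehicle replicate 3 were the low arrays. The brightest 20% of genes had medians of 0.013, 0.007, -0.049 and -0.052 with MPE and 0.016, 0.012 and -0.025 with vehicle, low on the same arrays. Without MPE replicate 4, 16 of the 34 genes were below 0 and the median was 0.001. Within the slide columns that held both groups, the median of MPE minus vehicle was 0.005 in column 1, -0.032 in column 2 and -0.026 in column 4. Of the 34 genes, 44.1%, 61.8% and 61.8% were lower with MPE in these columns, against 54.8%, 54.9% and 55.4% of all genes tested. Across those 3 columns, 4 genes were lower with MPE in each (Ndufa9, Ndufs3, Cox6a1 and Mdh2) and 1 was higher in each (Ppargc1a). The share of all genes with the same direction in every column was not computed, so these genes are not set apart from the rest.

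The other mitochondrial genes held no call either. The other 12 lists held 221 genes, of which 215 were tested, and limma called 0 of them higher and 0 lower. At an unadjusted p under 0.05 there were also 0 in each direction. The list medians lay between -0.043 and 0.015. In these lists 128 genes were below 0 and 87 above, with a median of -0.008, and with quantile normalization 95 were below 0, with a median of 0.010. The intervals of 212 of the 215 lay within 1.5-fold in both directions. The groups did not overlap for 4 genes that were lower with MPE (Uqcr11, Pink1, Prdx5 and Idh2) and 1 that was higher (Pdha1), where over all genes 3.36% were lower without overlap and 1.17% higher.

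In the mainly structural lists, 17 of 25 other complex I subunits, 8 of 9 other complex III genes, 8 of 10 other complex IV subunits and 13 of 15 ATP synthase genes were below 0. Quantile normalization made these counts 10, 3, 7 and 4. The complex III list also holds assembly factors. Ndufv3, the lowest of the other complex I subunits, had a log2 difference of -0.11 (SE 0.08) and Ndufab1, the highest, 0.08 (SE 0.06). Uqcr11, a small complex III subunit, had all 4 MPE arrays (6.94 to 7.05) below the 3 vehicle arrays (7.05 to 7.09), with a difference of -0.08 (SE 0.05, limma adjusted p = 1). Ttc19, a complex III assembly factor, stood at 0.06. The assembly factors Bcs1l, Uqcc1 and Uqcc2 of the same list stood at -0.069, -0.015 and -0.01. Ndufa4l2, the hypoxia-inducible paralog of Ndufa4, stood highest in the complex IV list at 0.20 (SE 0.235), where MPE replicate 4 was at -1.57 and the other MPE arrays lay from -2.60 to -2.18. Cox4i2, the paralog of Cox4i1, stood lowest there at -0.13. Among the ATP synthase genes the extremes were Atp5a1 at -0.09 and Atp5pb at 0.02.

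The separate supply and assembly lists split more evenly, and they were dimmer. Their median levels lay between 2.24 and 3.96, against 4.2 to 7.36 for the mainly structural lists. Of all genes tested, 66% of the brightest 20% and 52.9% of the next brightest 20% lay below 0. Whether the split goes with brightness or with the kind of gene was not tested. The mitochondrial ribosome list had 21 of 44 genes below 0, the other TCA and pyruvate-entry genes 10 of 20, complex I assembly factors 6 of 14 and complex IV assembly factors 11 of 18, and quantile normalization made these counts 16, 10, 5 and 10. Mrpl1 had the largest difference among the tested genes of the 12 mitochondrial lists, 0.30. Its log2 levels were 2.02 to 2.18 with MPE and 2.04, 2.04 and 1.28 with vehicle, so the difference rests on vehicle replicate 3. Mrps23 stood lowest of the ribosome list at -0.08. The pyruvate carrier genes Mpc1 and Mpc2 were the extremes of the pyruvate list, at 0.06 and -0.09. Timmdc1 and Ndufaf4, both complex I assembly factors, stood at -0.16 and 0.08, and the complex IV factors Sco2 and Cox11 at -0.11 and 0.08.

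The remaining lists, at the same scaling, ran as follows. In the NADH shuttle and anaplerosis genes, 7 of 11 were below 0, between Gpd1 at -0.05 and the dicarboxylate carrier Slc25a10 at 0.12. In the biogenesis regulators, 7 of 16 were below 0, between the mitochondrial RNA polymerase Polrmt at -0.09 and Mterf3 at 0.15. In import, shape and quality control, 14 of 25 were below 0, between the fission factor Fis1 at -0.11 and Phb2 at 0.05. In defence against reactive oxygen, 6 of 8 were below 0, between the glutaredoxin Glrx2 at -0.16 and Gpx1 at 0.01.

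**Figure D5:**
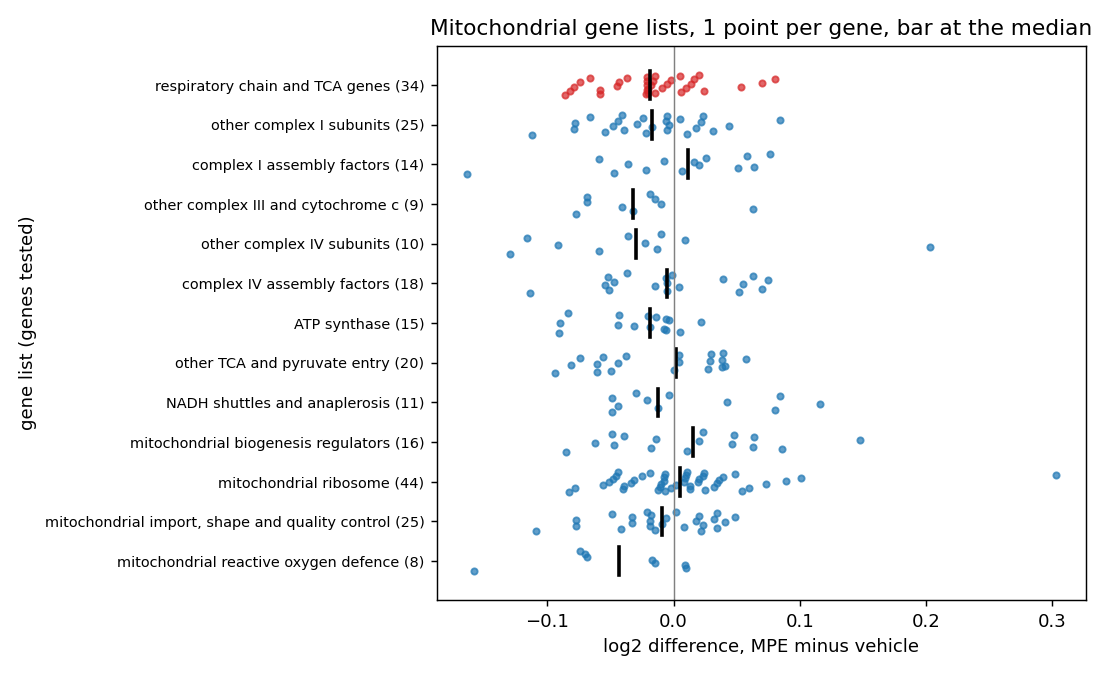
Log2 difference between MPE and vehicle (x axis) for every tested gene of the respiratory chain and TCA set and of 12 other mitochondrial lists, 1 point per gene, with a bar at each median. The medians lie between -0.043 and 0.015, and Mrpl1 at 0.30 and Ndufa4l2 at 0.20 lie farthest out.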

How the data were processed

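Cy3-labelled RNA of 7 samples was measured on Agilent mouse arrays with 1 colour, per the labels. The deposited intensity files come from Feature Extraction 11.5.1.1 per the file headers (10.5.1.1 in the submitters' processing notes), which background-subtracted and detrended the processed intensity. The median spot and background intensities are raw. The flags and other deposited columns say whether a spot is a control, an outlier or well above background. The authors' value table holds log2 values whose columns share 1 distribution, and the sources used here do not give its tool.

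Control spots and 611 outlier spot values were left out, and spots of a probe were averaged. Of the probes with a value on all 7 arrays, those well above background on 3 or more were kept (28874), and the probe with the highest mean stood for its gene. Symbols came from RefSeq (GRCm38.p6). The 2 groups were compared in limma 3.58.1 (R 4.3.3) through lmFit and eBayes, with Benjamini-Hochberg adjustment at 0.05, and the procedure was tested on simulated data. The simulated noise was independent between arrays and held no effect of slide row or replicate, so that test does not cover such effects. The number of arrays limits the precision. The genes, the lists and the tests were chosen with earlier results of these data known. All 35 genes were named. Array values are given for the extremes of each group and for the regulators, and of other lists the extremes and genes with an unadjusted p under 0.05 were named. None of the 13 mitochondrially encoded genes had a symbol match.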

Additional observations from a re-analysis of the deposited data

Results flagged for a closer look

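For the mitochondrial pyruvate carrier gene Mpc1, MPE replicate 3 stood apart from the other MPE arrays, at a log2 level of 5.98 against 5.82 to 5.83. The vehicle arrays were at 5.71, 5.77 and 5.95, with replicate 3 highest there too. Of the 67 genes examined this way, 34 of them respiratory chain and TCA genes, it was the only one with an outlying MPE array, and chance would flag about 1 in 20.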

How the results depend on the processing

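Under all 20 alternatives, 0 of the 34 respiratory chain and TCA genes passed limma's adjusted threshold, and the smallest adjusted p of any of them was 0.461, without a filter on dim probes. The number below 0, 24 of 34, became 11 with quantile normalization, 11 with the authors' value table and 12 with normexp, and lay between 16 and 26 with 1 array left out. Their median of -0.019 became -0.089 with median scaling and lay between -0.030 and 0.001 with 1 array left out. Of the 34 genes, 6 kept their sign under every alternative: Ndufa9, Ndufs3, Ndufs8, Cox7a2 and Ogdh below 0 and Sdha above. Not all alternatives were separate checks of sign. Both changes of the filter and the trended robust variance left the differences of the 34 genes as they were. The replicate block gave the same differences as leaving out MPE replicate 4, and the slide column block the same as leaving out MPE replicate 3. The other 28 changed sign under at least 1 alternative, all with differences that passed no threshold. Across all genes, the count called higher, 1, became 0 with normexp, the filter on all 7 arrays, the replicate block and the slide column block, 3 with the trended robust variance and with array weights, and 0 to 3 with 1 array left out. The count called lower, 0, became 2 with the lowest probe, 1 with array weights, and 0 to 1 with 1 array left out. Without a filter 45478 genes entered, among them those near background, and the median of all genes moved from -0.016 to 0.054. In that setting 9619 genes were called higher and 349 lower, and the part of background signal in these calls was not tested. With the filter, at an unadjusted limma p under 0.05, the counts were 167 and 740. The replicate block gave 16 of 34 genes below 0 and a median of 0.001. Deviations of same-numbered arrays of the 2 groups correlated at 0.247, 0.051 and 0.413. Those of differently numbered arrays correlated between -0.334 and 0.306, mostly below 0. Split another way, pairs within replicates 1 and 2, or within 3 and 4, correlated between 0.051 and 0.413. Pairs across these 2 sets correlated between -0.334 and -0.011. Replicate 4 was in the MPE group only. The labels do not say what a number marks, so the numbers were not taken as pairs in the main fit. Whether same-numbered arrays, or replicates 1 and 2 as against 3 and 4, share an effect was not tested. Normexp used the median spot intensity. Each of the 34 genes was well above background on every array. Whether signal strength limited the dimmer ones, such as Ucp2, was not tested.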
